A study of Homo sapiens with 6 samples.

Results

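The genes of mitosis and cytokinesis described here are 49 of the 20289 genes of the deposited table, taken by symbol from a list of mitotic cyclins and kinases, kinetochore, checkpoint, spindle, condensin and cytokinesis genes. Every one of the 49 was found once in the table and passed the filter on low counts. RNA of SW480 cells, an established human colon adenocarcinoma line, was made into mRNA-seq libraries and sequenced in 3 libraries of the control LV-NC (genotype WT, treatment "None / LV-NC") and 3 libraries of cells overexpressing MUCP1-Flag, labelled MUCP1-FLAG. Both groups grew in L-15 medium with serum and antibiotics. The series concerns MUCP1, a microprotein, and asks which genes change when it is raised. The labels call the libraries biological replicates and do not say whether either culture was 1 clone, so p-values measure the spread between these libraries, which may be technical. No gene of the table bears the name MUCP1, and its level was not checked here.

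In dividing cells, cyclin A2 and the B cyclins switch on the kinase CDK1, which drives chromosome condensation and assembly of the spindle. Kinetochores tie chromosomes to spindle microtubules, and the spindle checkpoint holds back the anaphase-promoting complex (APC/C), a ubiquitin ligase, until all are attached. CDC20 then directs this ligase to cyclin B and to securin (PTTG1), separase cuts cohesin, and the central spindle and a contractile ring split the cell. Transcripts of many of these genes peak in G2 and mitosis. Their promoters are known for CCAAT boxes, bound by NF-Y, and for the cell cycle genes homology region (CHR), bound by the DREAM complex in resting cells and by a complex of MYBL2 and FOXM1 in G2.

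Promoters are shown because the 49 genes were chosen by function and by no sequence. A link between these sequences and the change in MUCP1-FLAG cells was not tested. The RefSeq table (GRCh38.p14) held a window from 250 bases before to 50 after the start for 41 of the 49. It had none for AURKA, TTK, TPX2, RACGAP1, BIRC5, UBE2C, FOXM1 and PBK. The CHR was searched as TTTGAA or TTCGAA and the CCAAT box as CCAAT, each on both strands and with overlaps allowed. In the lines below, each of 150 bases ending at the base before the start, capitals mark these matches. Shown are 4 genes that rose in MUCP1-FLAG cells (CCNA2, NCAPG, KIF20A, CCNB2) and 2 that were not called (CCNB1, CDC20). They lie at chr4:121823884-121824033 (− strand), chr4:17810829-17810978 (+ strand), chr5:138178962-138179111 (+ strand), chr15:59104996-59105145 (+ strand), chr5:69167000-69167149 (+ strand) and chr1:43358831-43358980 (+ strand), in this order. The start is that of the RefSeq table, which lies downstream of the outermost gene start in GENCODE 29 by 50 bases for CCNA2, 77 for NCAPG, 393 for KIF20A, 68 for CCNB2, 140 for CCNB1 and 26 for CDC20, so the lines overlap those gene models.
CCNA2: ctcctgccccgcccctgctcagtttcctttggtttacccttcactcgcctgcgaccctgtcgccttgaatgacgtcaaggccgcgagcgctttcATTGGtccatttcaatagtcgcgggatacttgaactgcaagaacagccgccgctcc
NCAPG: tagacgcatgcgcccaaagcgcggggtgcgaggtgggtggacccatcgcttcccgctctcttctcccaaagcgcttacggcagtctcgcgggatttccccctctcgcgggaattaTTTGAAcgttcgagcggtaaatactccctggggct
KIF20A: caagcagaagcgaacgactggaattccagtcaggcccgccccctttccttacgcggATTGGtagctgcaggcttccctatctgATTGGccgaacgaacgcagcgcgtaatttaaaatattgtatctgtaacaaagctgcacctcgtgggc
CCNB2: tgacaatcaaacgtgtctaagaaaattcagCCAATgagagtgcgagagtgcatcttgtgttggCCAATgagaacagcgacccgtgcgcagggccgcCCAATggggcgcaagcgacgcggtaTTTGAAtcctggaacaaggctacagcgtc
CCNB1: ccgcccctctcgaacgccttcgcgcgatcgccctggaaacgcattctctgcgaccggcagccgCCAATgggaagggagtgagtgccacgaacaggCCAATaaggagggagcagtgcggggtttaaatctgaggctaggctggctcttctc
CDC20: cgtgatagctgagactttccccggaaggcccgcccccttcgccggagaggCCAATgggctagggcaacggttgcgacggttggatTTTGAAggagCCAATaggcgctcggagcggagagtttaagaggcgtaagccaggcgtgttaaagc

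A CHR match stood in 31 of the 41 windows, or 75.6%, against 16.4% of all 35116 windows of the RefSeq table and 10.7% of the 10299 windows that matched a tested gene. A CCAAT match stood in 30 of 41 windows, or 73.2%, against 34.6% and 36.4%. Both were present in 24 windows (58.5%), against 4.48% for tested genes. Of the 40 CHR matches, 29 began within 50 bases of the start, or 72.5%, where the share over tested genes was 26.3%. CCNB2 held 4 CCAAT matches and 1 CHR match, and CDC20 held 2 of each, 1 of its CHR matches upstream of the bases shown. CCNA2, KIF20A and CCNB1 had CCAAT matches and no CHR match by these letters. Among genes called higher 20 of 25 windows had a CHR match, and among genes not called 11 of 16, so the letters were present on both sides of the call. A match describes the sequence and shows neither binding nor use.

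Most of the mitosis genes were slightly more abundant in MUCP1-FLAG cells. At an adjusted p under 0.05 in edgeR's quasi-likelihood test, 31 of the 49 rose, or 63.3%, where 8.35% of the 12920 genes tested rose. No member fell at that threshold, where 7.71% of all tested genes fell. At an unadjusted p under 0.05 in edgeR, 39 members were higher and 0 lower, where 14.7% of all tested genes were higher and 14.7% lower. At the same unadjusted threshold DESeq2 had 39 members higher and 0 lower, against 9.72% and 8.79% of 16558 genes. These were all genes with any count, a wider set than the 12920 of edgeR. By limma on log2(FPKM + 1), 29 members were higher and 0 lower, against 11.1% and 13.4% of the 12920. The median log2 fold change was 0.21, a level 1.15-fold that of LV-NC, against −0.0042 over all tested genes. The log2 fold changes ran from −0.05 to 0.51, and no member reached 1.5-fold. For 36 members the 3 MUCP1-FLAG values all lay above the 3 LV-NC values, or 73.5% of them, where 16.6% of tested genes did so. CDK1, BUB1, TTK, KIF2C and KIF23 were among these 36 and were not called. In bulk RNA, a changed share of cells in the phases of the cell cycle and more of these transcripts per cell cannot be told apart.

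**Figure D1:**
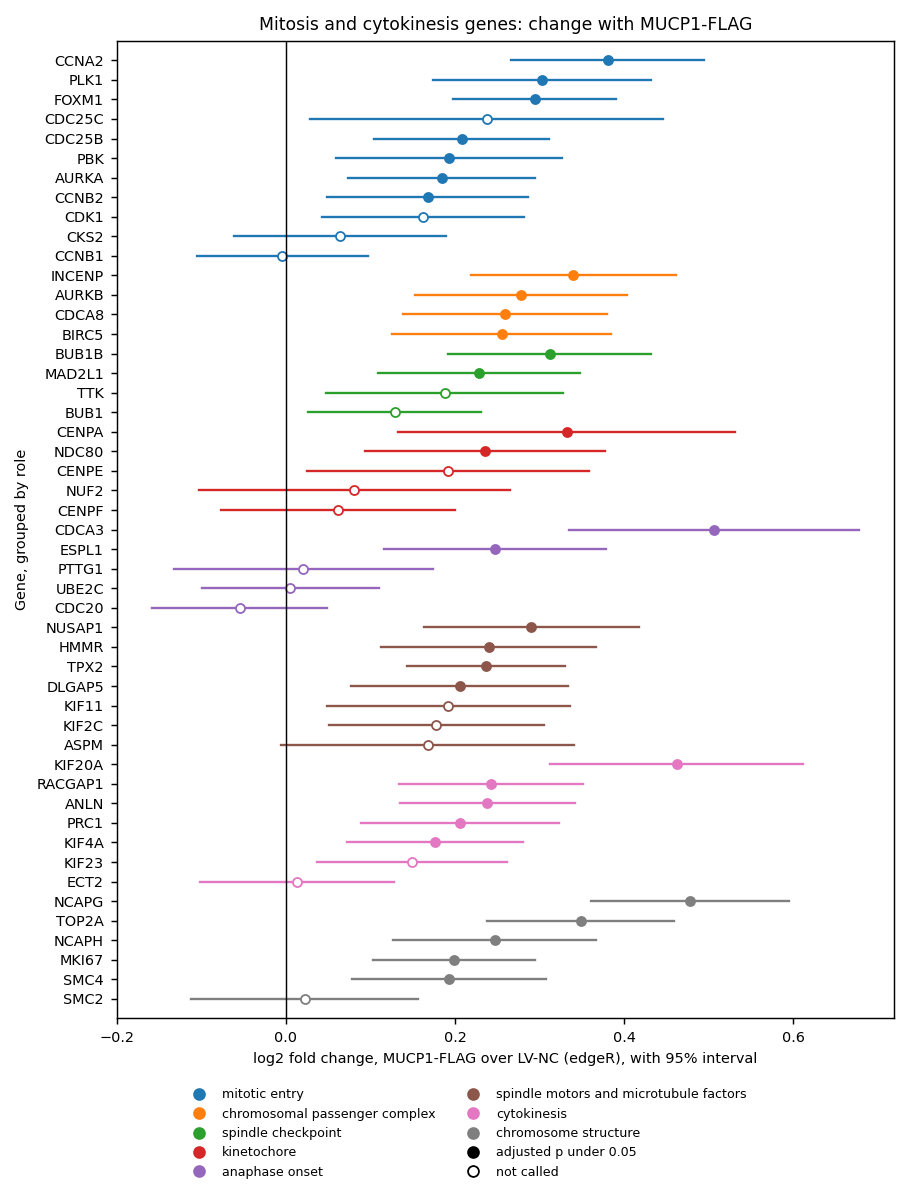
Log2 fold change of each of the 49 genes in MUCP1-FLAG over LV-NC (horizontal axis, edgeR) with its 95% interval, grouped by role in colour; filled points passed an adjusted p of 0.05. The 31 filled points lie to the right of 0, and CCNB1, CDC20, UBE2C, PTTG1, ECT2 and SMC2 lie closest to 0.

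The higher level was seen in each MUCP1-FLAG library. The 49 genes took 0.529%, 0.537% and 0.559% of all counts of the LV-NC group, against 0.631%, 0.600% and 0.614% after overexpression, so the groups did not overlap. Relative to the LV-NC mean, the median member stood at −0.03, 0.0027 and 0.04 on the log2 scale in LV-NC and at 0.25, 0.22 and 0.20 in MUCP1-FLAG. The corresponding medians over all tested genes lay between −0.0074 and 0.0026. Among LV-NC libraries replicate 3 had 31 members above their group mean and replicate 1 had 22, and among MUCP1-FLAG libraries replicate 1 had 33. Over all tested genes 47.3%, 50.9% and 49.7% lay above the group mean in these libraries, in this order.

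Differences between libraries of 1 group were also related to gene length in some pairs. Across the 49 genes, which are not independent replicates, Pearson's r of the difference between 2 libraries with log2 exonic length (GENCODE 29) was 0.29, 0.43 and 0.39 for LV-NC replicate 2 minus 1, 3 minus 1 and 3 minus 2. Among MUCP1-FLAG libraries these values were −0.60, −0.15 and 0.57. Over 12885 tested genes with a length, the same 6 values lay between −0.16 and 0.20. The log2 fold change between the groups had an r of 0.18 with length over the 49 genes and of −0.03 over all. The part of length in the calls was not tested.

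**Figure D2:**
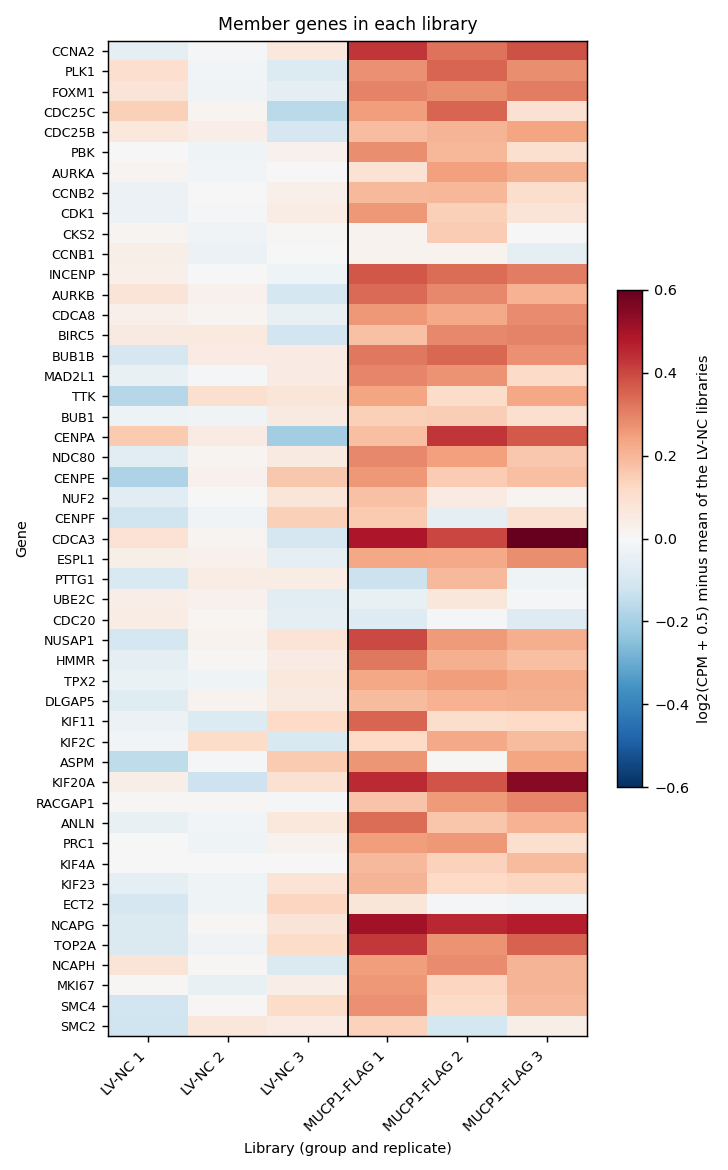
Each row is 1 of the 49 genes and each column 1 library; colour gives log2(CPM + 0.5) minus the mean of the 3 LV-NC libraries. The MUCP1-FLAG columns are red for most rows, with medians of 0.20 to 0.25, while UBE2C, CDC20 and CCNB1 stay pale.

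Among the 11 genes of mitotic entry 7 rose. CCNA2, cyclin A2, which acts from S phase into early mitosis, read 74.6, 77.0 and 81.1 CPM (counts scaled to library size with TMM factors) in LV-NC libraries, and 105, 97.3 and 101 CPM with MUCP1-FLAG. All its MUCP1-FLAG values lay above all its LV-NC values, and its log2 fold change came to 0.38 ± 0.05 (SE, n = 3 per group, edgeR adjusted p 4.57e-05), or 30.2% higher. FOXM1, the transcription factor that drives G2 genes, read 242, 226 and 222 CPM against 282, 279 and 285 CPM (0.29 ± 0.05, edgeR adjusted p 0.000125). PLK1, a kinase of spindle poles and kinetochores, read 56.1, 51.5 and 49.2 CPM against 63.3, 66.7 and 63.3 CPM (0.30 ± 0.06, edgeR adjusted p 0.00168). These genes had groups that did not overlap. On the deposited FPKM values, which are scaled for length, PLK1 had 0.14 with limma (adjusted p 0.25). It read 38.58, 33.66 and 32.55 FPKM in LV-NC libraries, and 38.68, 39.81 and 36.98 FPKM with MUCP1-FLAG. These were not a fixed multiple of its CPM across libraries, so a fixed gene length does not account for the smaller value.

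CCNB1, cyclin B1, the main mitotic partner of CDK1, read 148, 141 and 144 CPM in LV-NC libraries, and 146, 146 and 139 CPM with MUCP1-FLAG. The groups overlapped, at −0.0044 ± 0.05 on the log2 scale (edgeR adjusted p 0.965), with a 95% interval of −0.11 to 0.10. CDK1 itself read 80.2, 81.8 and 84.9 CPM against 98.6, 90.9 and 87.0 CPM. Its MUCP1-FLAG values were the higher ones in each case, and it missed the threshold (0.16 ± 0.06, edgeR adjusted p 0.0583), passing without LV-NC replicate 3 (adjusted p 0.02). CCNB2, cyclin B2, with 0.17 ± 0.06, and PBK, a mitotic kinase, with 0.19 ± 0.06, were called at adjusted p of 0.0489 and 0.0449. The call of CCNB2 was lost when any 1 library except LV-NC replicate 3 was left out (adjusted p 0.0737 to 0.18). It was also lost with RLE size factors (0.0505), library totals only (0.0786), the stricter filter (0.0562) and DESeq2 (0.08). The call of PBK was lost when LV-NC replicate 1 or 2 or MUCP1-FLAG replicate 1 or 2 was left out (0.052 to 0.214), and with library totals only (0.0703), the stricter filter (0.0506) and DESeq2 (0.084). AURKA, the centrosomal kinase, had 0.18 ± 0.05, and its adjusted p was 0.0956 to 0.131 when LV-NC replicate 2 or MUCP1-FLAG replicate 2 or 3 was left out. The phosphatase CDC25B, which activates CDK1, had 0.21 ± 0.05 and lost its call (adjusted p 0.0506) when MUCP1-FLAG replicate 3 was left out. CDC25C, its relative, had 0.24 ± 0.10 (edgeR adjusted p 0.117, and 0.0426 without LV-NC replicate 1), and CKS2, a small CDK-binding subunit, 0.06 ± 0.06.

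The balance of cyclin A2 to cyclin B1 was compared within libraries. The ratio of CCNA2 counts to CCNB1 counts was 0.505, 0.547 and 0.562 in controls, against 0.716, 0.665 and 0.728 after overexpression. The groups did not overlap, and the mean log2 difference was 0.39. An exact two-sided permutation test over the 6 libraries gave p = 0.1, the smallest that 3 against 3 allows, and 0.2 after Benjamini-Hochberg adjustment over the 4 ratios computed. All 4 pairs were chosen after their values were seen, so their p-values are no independent support.

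**Figure D3:**
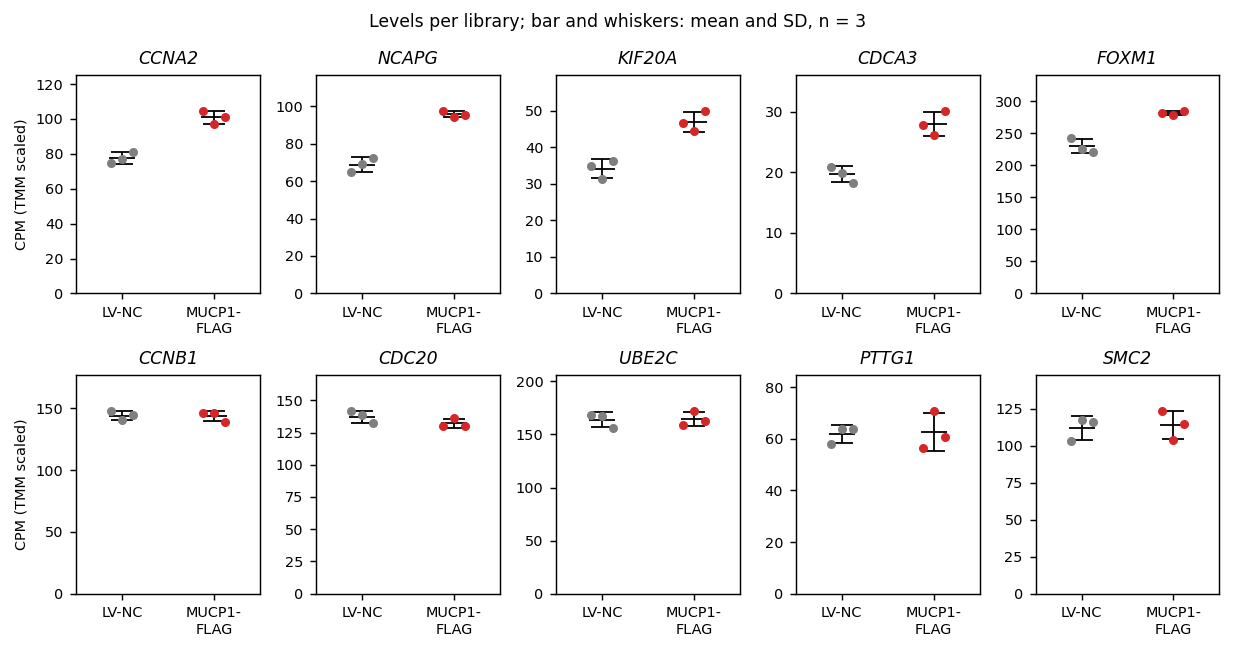
CPM per library (vertical axis, from 0) for 10 genes; points are libraries, and the bar and whiskers give mean and SD of 3. In the upper row (CCNA2, NCAPG, KIF20A, CDCA3, FOXM1) the red MUCP1-FLAG points lie above all grey LV-NC points, and in the lower row (CCNB1, CDC20, UBE2C, PTTG1, SMC2) the groups overlap.

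All 4 members of the chromosomal passenger complex rose. This complex moves from centromeres to the central spindle and corrects faulty attachments. INCENP, its scaffold, read 49.5, 48.5 and 47.6 CPM in LV-NC libraries, and 63.0, 61.3 and 60.1 CPM with MUCP1-FLAG (0.34 ± 0.06, edgeR adjusted p 0.000301). AURKB, its kinase, read 70.03, 67.6 and 61.7 CPM against 84.1, 81.0 and 76.7 CPM (0.28 ± 0.06, 0.00279). The groups did not overlap in either gene. CDCA8, borealin, had 0.26 ± 0.06. BIRC5, survivin, had the largest p of the complex and read 62.7, 62.8 and 55.8 CPM against 68.2, 73.9 and 74.2 CPM (0.25 ± 0.06, edgeR adjusted p 0.00658). Its adjusted p was 0.0547 without MUCP1-FLAG replicate 3. The 4 log2 fold changes spanned 0.25 to 0.34.

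Of the 4 genes of the spindle checkpoint 2 rose. BUB1B, the BUBR1 subunit of the inhibitor of the APC/C, read 64.5, 71.6 and 71.6 CPM in LV-NC libraries, and 86.1, 88.0 and 83.7 CPM with MUCP1-FLAG (0.31 ± 0.06, edgeR adjusted p 0.000635). MAD2L1, which encodes MAD2, the subunit that binds CDC20, read 84.3, 86.5 and 89.9 CPM against 107, 105 and 94.1 CPM (0.23 ± 0.06, edgeR adjusted p 0.0083). Its groups did not overlap, and its adjusted p was 0.0659 and 0.0535 without MUCP1-FLAG replicates 1 and 2. BUB1, a kinetochore kinase, read 129.7, 131 and 137 CPM against 146, 147 and 142 CPM. Its groups did not overlap either, and it was not called (0.13 ± 0.05, edgeR adjusted p 0.0806; 0.0177 without LV-NC replicate 3). TTK, the kinase MPS1, had 0.19 ± 0.07 (adjusted p 0.0626, and 0.0278 without LV-NC replicate 3).

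Of the 5 kinetochore genes 2 rose, and both calls depended on single libraries. CENPA, the histone H3 variant of centromeres, read 21.9, 20.3 and 16.9 CPM against 22.3, 26.5 and 25.4 CPM, with groups that did not overlap (0.33 ± 0.10, edgeR adjusted p 0.0205). Its adjusted p was 0.0579 to 0.114 when LV-NC replicate 3 or MUCP1-FLAG replicate 2 or 3 was left out. NDC80, the microtubule-binding subunit, read 32.3, 34.3 and 35.2 CPM against 41.6, 40.3 and 38.0 CPM (0.24 ± 0.07, edgeR adjusted p 0.0208, and 0.0657 to 0.104 when LV-NC replicate 2 or MUCP1-FLAG replicate 1 or 2 was left out). NUF2, the direct partner of NDC80, read 15.2, 15.9 and 16.9 CPM against 18.1, 16.5 and 16.2 CPM. These values overlapped (0.08 ± 0.09, edgeR adjusted p 0.592), and the interval of −0.10 to 0.26 includes the value of NDC80. The motor CENPE had 0.19 ± 0.08 (adjusted p 0.112, and 0.00985 without LV-NC replicate 3) and the large coiled-coil protein CENPF 0.06 ± 0.07.

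The 5 genes listed under anaphase onset were split. CDCA3, a cofactor of the degradation of the CDK1 inhibitory kinase WEE1, had the largest change of all 49. This role lies at mitotic entry, and apart from CDCA3 only ESPL1 of this list was called. CDCA3 read 20.9, 19.9 and 18.3 CPM in LV-NC libraries, and 27.7, 26.1 and 30.1 CPM with MUCP1-FLAG, with no overlap (0.51 ± 0.08, edgeR adjusted p 0.000181). ESPL1, separase, read 40.4, 40.0 and 37.7 CPM against 46.3, 46.1 and 47.8 CPM (0.25 ± 0.06, edgeR adjusted p 0.00911, and 0.0606 without MUCP1-FLAG replicate 3). UBE2C, the ubiquitin-conjugating enzyme of the APC/C, read 169, 167 and 156 CPM against 159, 172 and 163 CPM. Its groups overlapped, at 0.0052 ± 0.05 (edgeR adjusted p 0.96) and an interval of −0.10 to 0.11.

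CDC20, the activator of the APC/C in mitosis, and PTTG1, securin, fell outside the rule for named genes and were added after their values were seen. CDC20 read 141, 138 and 132 CPM in LV-NC libraries, and 130.2, 136 and 130.2 CPM with MUCP1-FLAG (−0.05 ± 0.05, edgeR adjusted p 0.505, interval −0.16 to 0.05). PTTG1 read 58.0, 63.8 and 63.9 CPM against 56.4, 70.7 and 60.7 CPM (0.02 ± 0.07, interval −0.13 to 0.17). Both overlapped between the groups, and the value of PTTG1 is uncertain because the annotation names the copies PTTG2 and PTTG3P. The ratio of ESPL1 to PTTG1 counts was 0.638 ± 0.0537 in LV-NC and 0.753 ± 0.0896 in MUCP1-FLAG (SD, n = 3), with an exact permutation p of 0.2, or 0.267 adjusted over the 4 ratios. The sizes of the members that did not move are bounded by these intervals; the missed threshold alone does not show equal levels.

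Among the 7 spindle motors and microtubule factors 4 rose. TPX2, which activates AURKA on the spindle, read 261, 264 and 280.0 CPM against 315, 319 and 313 CPM (0.24 ± 0.04, edgeR adjusted p 0.000854). NUSAP1, which bundles microtubules near chromosomes, read 76.1, 83.2 and 86.8 CPM against 108, 97.9 and 95.4 CPM (0.29 ± 0.06, edgeR adjusted p 0.00219). HMMR, a spindle-pole protein, read 48.8, 50.8 and 52.4 CPM against 63.2, 58.9 and 57.5 CPM (0.24 ± 0.06, edgeR adjusted p 0.00917). None of these overlapped between the groups, and HMMR was at 0.0743 when MUCP1-FLAG replicate 1 was left out. ASPM, which focuses spindle poles, read 77.0, 85.0 and 95.5 CPM against 103, 85.9 and 101 CPM, with overlap (0.17 ± 0.08, edgeR adjusted p 0.185). It was called without LV-NC replicate 3 (adjusted p 0.0285) or MUCP1-FLAG replicate 2 (0.0387). DLGAP5, a spindle assembly factor, was called at 0.21 ± 0.06, and the call was lost when any 1 library except LV-NC replicate 3 was left out (adjusted p 0.0645 to 0.103). On FPKM its log2 fold change was 0.12 with limma (adjusted p 0.28). The motors KIF11 and KIF2C had 0.19 ± 0.07 and 0.18 ± 0.06 and adjusted p of 0.065 and 0.051; KIF11 had 0.0077 without LV-NC replicate 3 and KIF2C 0.0332 without LV-NC replicate 2.

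Of the 7 cytokinesis genes 5 rose. KIF20A, the motor that carries the passenger complex to the central spindle, read 34.9, 31.2 and 36.3 CPM in LV-NC libraries, and 46.7, 44.4 and 49.9 CPM with MUCP1-FLAG (0.46 ± 0.07, edgeR adjusted p 0.000109), or 37.8% higher. ANLN, anillin, the scaffold of the contractile ring, read 330.2, 337 and 356 CPM against 431, 382 and 394 CPM (0.24 ± 0.05, edgeR adjusted p 0.00198). RACGAP1, the GTPase-activating subunit of centralspindlin, read 94.2, 94.2 and 92.9 CPM against 106, 112 and 115 CPM (0.24 ± 0.05, edgeR adjusted p 0.00256). The groups of these 3 genes did not overlap. KIF23, the motor subunit of centralspindlin, had 0.15 ± 0.05 and missed the threshold (adjusted p 0.066, and 0.00766 without LV-NC replicate 3). The exchange factor ECT2, which RACGAP1 recruits to activate RhoA, read 185, 195 and 217 CPM against 209, 197 and 196 CPM. Its values overlapped (0.01 ± 0.05, edgeR adjusted p 0.906, interval −0.10 to 0.13). PRC1, which bundles the central spindle, had 0.21 ± 0.06 and KIF4A, its motor partner, 0.18 ± 0.05. Their calls were lost when LV-NC replicate 2 or MUCP1-FLAG replicate 1 was left out (adjusted p 0.0819 to 0.0845), that of PRC1 also without MUCP1-FLAG replicate 2 (0.096) and that of KIF4A without MUCP1-FLAG replicate 3 (0.0995).

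Chromosome structure had 5 of 6 genes higher. NCAPG, a subunit of condensin I, had the smallest p of all 49 and read 64.7, 68.9 and 72.6 CPM in LV-NC libraries, and 97.5, 94.2 and 95.5 CPM with MUCP1-FLAG (0.48 ± 0.06, edgeR adjusted p 3.9e-06), or 39.3% higher. TOP2A, topoisomerase II alpha, read 348, 365 and 399.6 CPM against 498, 447 and 474 CPM (0.35 ± 0.05, edgeR adjusted p 9.55e-05). MKI67, the Ki-67 protein that coats mitotic chromosomes, read 442, 427 and 453 CPM against 528, 482 and 508 CPM (0.20 ± 0.05, edgeR adjusted p 0.00467, and 0.0516 without LV-NC replicate 2). In each of these genes the groups lay apart.

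The other condensin subunits had smaller values than NCAPG. NCAPH, the kleisin of condensin I, had 0.25 ± 0.06 and SMC4, an ATPase subunit, 0.19 ± 0.05, whose call was lost without LV-NC replicate 1 or 2 or MUCP1-FLAG replicate 1 or 3 (adjusted p 0.0547 to 0.135). SMC2, the other ATPase subunit, read 103, 118 and 116 CPM against 123, 104 and 115 CPM, with overlap (0.02 ± 0.06, edgeR adjusted p 0.857, interval −0.11 to 0.16). The ratio of NCAPG to SMC2 counts was 0.628, 0.586 and 0.625 in LV-NC libraries, and 0.790, 0.904 and 0.830 with MUCP1-FLAG. These did not overlap, with an exact permutation p of 0.1, the smallest possible, and 0.2 adjusted over the 4 ratios. This pair too was chosen after its values were seen, so the separation is no independent support. The fourth ratio, CENPA to CENPF, was 0.120 ± 0.0259 against 0.143 ± 0.0228 (exact permutation p 0.4).

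Levels per length, as FPKM, ranked the genes differently from counts. In LV-NC the highest was UBE2C at 213 ± 8.07 FPKM (SD, n = 3), followed by CCNB1 at 101 ± 3.64, CKS2 at 93.4 ± 1.59, ANLN at 87.4 ± 7.84, PTTG1 at 85.7 ± 4.80 and CDC20 at 83.2 ± 2.39. The 4 from CKS2 to CDC20 did not all stand apart by more than their SDs. The lowest were CENPE at 4.07 ± 0.67 and ESPL1 at 6.88 ± 0.26 FPKM, and the median member stood at 29.03 FPKM, against 10.7 FPKM over all tested genes. Of these 6 genes, the highest by FPKM, 5 were not called, and of the other 43 genes 30 rose, a split drawn after the values were seen. The split depended on the measure. By mean CPM in LV-NC the highest were MKI67 (441), TOP2A (371), SMC4 (358), ANLN (341), TPX2 (268) and FOXM1 (230). Each of these was called higher. In MUCP1-FLAG UBE2C stood at 211 ± 7.52, CCNB1 at 99.9 ± 2.59 and CDC20 at 79.1 ± 1.54 FPKM.

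**Figure D4:**
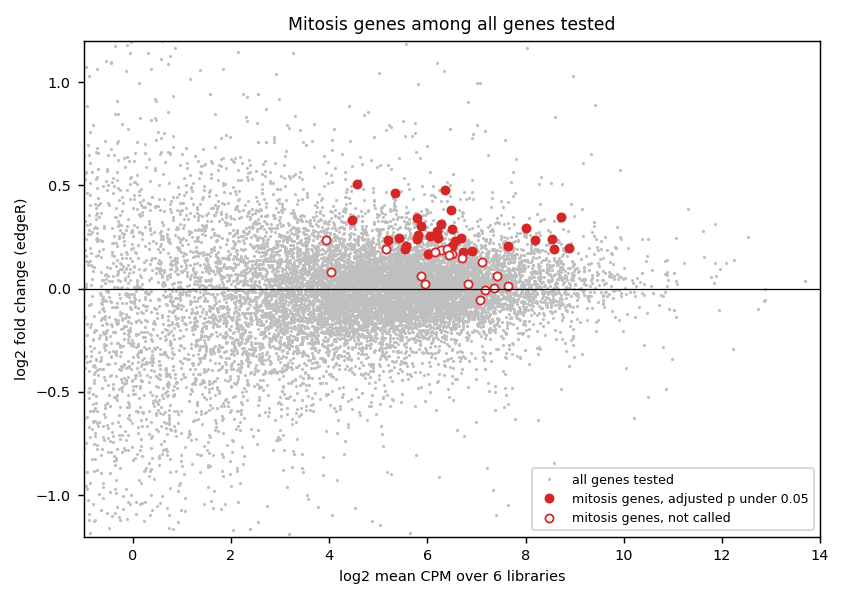
Log2 fold change (vertical axis, edgeR) against log2 mean CPM over 6 libraries (horizontal axis) for the 12920 tested genes (grey) and the 49 mitosis genes (red, filled where adjusted p was under 0.05); 141 genes lie outside the axes. The filled points lie in the upper part of the grey cloud at their abundance, and none reaches 1.5-fold.

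By the authors' deposited table, 26 of the 49 genes had an adjusted p under 0.05, all with a higher MUCP1-FLAG value, and all 26 were among the 31 called by edgeR. Of all 20289 genes in the authors' deposited table, 4.06% passed as higher and 3.44% as lower. These shares include the genes that the filter on low counts removed, a wider set than the 12920 tested by edgeR. By limma, log2 FPKM values (pseudocount 1 or 0.1) gave 13 of the 49 as higher and 0 as lower. Among all tested genes 3.98% and 3.99% were higher with these pseudocounts, and 4.21% and 4.25% lower. These 13 also passed in each alternative run: CCNA2, FOXM1, AURKB, INCENP, CDCA8, BUB1B, CDCA3, TPX2, NUSAP1, KIF20A, RACGAP1, TOP2A and NCAPG. With 1 library left out, 16 of the 31 were called in each of the 6 fits.

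Other genes of mitosis were counted in 6 lists with 135 tested genes. Of these 47 rose, or 34.8%, 2 fell and 86 were not called, and their median was 0.11 on the log2 scale. By limma on log2(FPKM + 1) 20 of the 135 rose, where 3.98% of all tested genes did. By edgeR 29 rose when LV-NC replicate 2 or MUCP1-FLAG replicate 3 was left out, where 5.16% and 4.91% of all tested genes did. Of 13 entry regulators 6 rose, with CCNF, an F-box cyclin, at 0.50 ± 0.09 and the kinase MELK at 0.30 ± 0.05. Of 38 kinetochore and centromere genes 14 rose, with ZWINT, which links the checkpoint to kinetochores, at 0.36 ± 0.06 and CENPU at 0.39 ± 0.07. Of 30 spindle genes 13 rose, with STMN1, a tubulin-binding protein, at 0.34 ± 0.05 and the importin KPNA2 at 0.23 ± 0.04. Of 17 condensin and cohesin genes 8 rose, with the condensin II subunits NCAPG2 at 0.29 ± 0.05 and NCAPD3 at 0.26 ± 0.05.

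The APC/C list stood near the background. Of 17 subunits and regulators 1 rose and 1 fell, with a median log2 fold change of 0.00038. FBXO5, the inhibitor EMI1, was the gene that rose (0.38 ± 0.08, edgeR adjusted p 0.00182), and the subunit CDC16 had −0.15 ± 0.05 (edgeR adjusted p 0.0475). Of 20 other cytokinesis genes 5 rose, among them RHOA at 0.18 ± 0.04 and SHCBP1 at 0.33 ± 0.08, and SAPCD2 fell (−0.21 ± 0.07, edgeR adjusted p 0.0351). DESeq2 called neither CDC16 nor SAPCD2.

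Among 24 genes of cell cycle transcription 6 rose. MYBL2, which joins FOXM1 at CHR promoters, had 0.53 ± 0.06 (edgeR adjusted p 9.2e-07) and E2F8, a repressor of E2F targets, 0.62 ± 0.07 (edgeR adjusted p 3.79e-06). The NF-Y subunit NFYA rose by 0.29 ± 0.07, and NFYB and NFYC had 0.02 ± 0.08 and 0.07 ± 0.08. LIN54, the DREAM subunit that binds the CHR, had 0.16 ± 0.07 (adjusted p 0.149), and CDKN1A, a CDK inhibitor, had −0.09 ± 0.06 (adjusted p 0.343); neither was called. In a list of 46 DNA replication genes 24 rose, or 52.2%, with a median log2 fold change of 0.17, led by PCNA (0.36 ± 0.05) and CDC45 (0.47 ± 0.06). Whether the mitosis and replication genes differed in size of change was not tested.

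**Figure D5:**
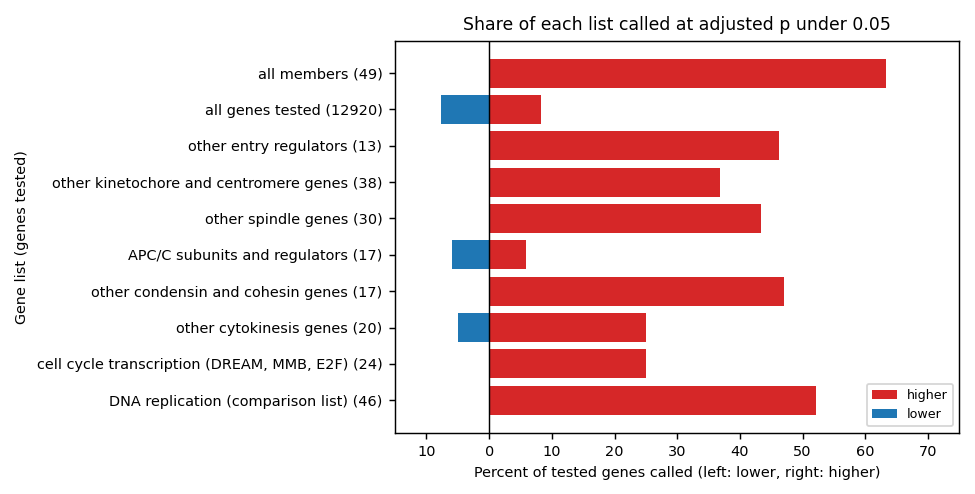
Share of tested genes called higher (red, to the right) or lower (blue, to the left) in MUCP1-FLAG for the 49 mitosis genes, all tested genes and 8 further lists, with the number tested in brackets. The mitosis genes reach 63.3%, DNA replication genes 52.2% and all tested genes 8.35%, while the APC/C list has 1 gene on each side.

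Library totals ran from 17333329 to 23282604 counts. Of 12 colon epithelium markers 8 were tested; KRT8 and KRT18 were abundant, CDX1 and LGALS4 had no counts, and CDH1 (−1.06 ± 0.08), EPCAM (−0.33 ± 0.05) and VIL1 (−0.40 ± 0.10) fell while KRT19 rose (0.17 ± 0.05). The summed level of the 12 was 6410 to 7089 CPM in LV-NC and 6890.1 to 7072 CPM in MUCP1-FLAG, and the part of these changes in the mitosis genes was not tested. Markers of other cells were low. The 8 fibroblast markers summed to 1.10 to 1.36 CPM in LV-NC and 0.75 to 1.09 CPM in MUCP1-FLAG, with COL1A2, COL3A1 and DCN at 0. The 6 endothelium markers summed to 3.15 to 3.66 and 2.87 to 4.93 CPM, with PECAM1, CDH5 and KDR at 0. The 8 leukocyte markers, with PTPRC at 0, summed to 13.6 to 14.3 and 8.05 to 10.5 CPM, most of it CD68, a macrophage and lysosome protein, which fell (−0.62 ± 0.11, edgeR adjusted p 0.000554). The part of this change in the mitosis genes was not tested.

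Reads of overlapping genes limit some values, since it is not known whether reads were counted by strand. Strand could not separate partners of the same strand in any case. In GENCODE 29 (GRCh38), 20 of the 49 genes share exonic bases with another gene. NCAPG (ENSG00000109805, chromosome 4, 17810902 to 17844862, + strand) shares 33.1% of its exonic bases with LCORL on the opposite strand. LCORL had 18.8 CPM and a log2 fold change of 0.19. SMC4 shares 18.5% with TRIM59 and FOXM1 15.9% with ITFG2, both on the opposite strand, with log2 fold changes of −0.13 and 0.10. NUSAP1 and PRC1 share 62.2% and 57.6% with AC087721.2 and AC068831.7 of the same strand. These had 0.54 and 6.60 CPM and log2 fold changes of 0.28 and 0.17. CENPA shares 6.96% with SLC35F6 of the same strand, which had 84.6 CPM and a log2 fold change of 0.28. The part of these overlaps in the values of the members was not tested. For 11 members the annotation names pseudogenes or close copies, 4 of them for UBE2C. CCNA2 (ENSG00000145386) lies on chromosome 4 at 121816444 to 121823933 (− strand), CCNB1 (ENSG00000134057) on chromosome 5 at 69167010 to 69178245 (+ strand) and KIF20A (ENSG00000112984) on chromosome 5 at 138178719 to 138187715 (+ strand).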

How the data were processed

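RNA was sequenced from 6 libraries, 3 per group. Per gene, the authors deposited read counts (whole numbers), FPKM values and their own comparison with a log2 fold change, a p-value and an adjusted p-value per gene. GRCh38 is the build, and featureCounts, DESeq2, HISAT2 and fastp the tools, per the submitters' processing notes. Tool versions, the strand setting and how lengths were set for FPKM: not given in the sources used here.

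All genes were tested on counts in R 4.3.3 with edgeR 4.0.16 (filterByExpr with a minimum count of 10, TMM, robust quasi-likelihood F test, no covariate), which left 12920 of 20289 genes, and p-values were adjusted over these by the Benjamini-Hochberg method. The standard error is the log2 fold change divided by the root of F. DESeq2 1.42.0, limma 3.58.1 on log2 of the deposited FPKM, other scalings, other filters, a replicate block and fits without each library were alternatives.

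The genes, lists and tests were chosen with earlier results of these data known. Values per library are given, in each role group, for the 2 members with the smallest p (3 in groups of 7 or more), for the one with the largest p, and for CCNB1, CDK1 and MKI67. From other lists the 2 called genes with the smallest p in each direction are named, and NFYA, NFYB, NFYC, LIN54 and CDKN1A were added after their values were seen. Libraries held 17333329 to 23282604 counts, and those of the 49 genes 101137 to 139693. No libraries of a group were alike within sampling noise.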

Additional observations from a re-analysis of the deposited data

How the results depend on the processing

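The direction of 43 of the 49 genes was positive in the main test and all 14 alternatives, and the median of the 49 stayed between 0.18 and 0.23, or 0.20 to 0.23 when 1 library was left out. With limma on log2(FPKM + 1) and log2(FPKM + 0.1) 13 and 13 members rose instead of 31, 514 and 516 of all genes were higher, 544 and 549 lower, and 20 and 20 other mitosis genes higher. Fewer other mitosis genes were lower than the 2 reported: 1 and 1 with limma, 1 without a filter, 0 with DESeq2 (4 at an unadjusted p under 0.05) and 0 with the replicate block (edgeR, 5 at an unadjusted p). When 1 library was left out, 22 to 37 members rose, and 639 to 1323 of all genes were higher and 624 to 1213 lower. Of the other mitosis genes 29 to 56 rose and 0 to 2 fell. The highest number of each range came without LV-NC replicate 3, and the cause of this spread was not tested. The number of lower members was 0 in each fit (edgeR, DESeq2 and limma, also at an unadjusted p).

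Members near 0 changed sign. CCNB1 was at 0.00046 without a filter and between −0.021 and 0.019 when 1 library was left out. UBE2C was at −0.012 with library totals only, −0.0015 with the stricter filter and −0.015 with limma on either FPKM scale, ECT2 at −0.0047 with library totals only, and PTTG1 at −0.0084 and −0.0085 with limma. Without 1 library UBE2C ran from −0.028 to 0.026, PTTG1 from −0.078 to 0.084, ECT2 from −0.037 to 0.079 and SMC2 from −0.040 to 0.086.

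With the replicate block 29 members rose; the calls lost were those of CCNB2 (adjusted p 0.0723) and PBK (0.0606). Correlations of same-numbered deviations were −0.02, 0.07 and 0.01. LV-NC replicate 2 correlated best with its own number, and LV-NC replicates 1 and 3 did not. Deviations from means of 3 libraries cannot settle whether the replicate numbers pair the libraries.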
